A study of Mus musculus with 8 samples.

Results

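Liver takes up fatty acids from the blood and carries them to the enzymes that burn, store or elongate them, and 9 genes of this process were examined here out of the 38283 genes in the deposited table. They were picked by gene symbol: *Cd36*, *Slc27a1*, *Slc27a2*, *Slc27a4* and *Slc27a5* at the entry step, and *Fabp1*, *Fabp2*, *Fabp4* and *Fabp5* in the cytosol. All 9 passed the filter on low values (FPKM above 1 in at least 1 library). The livers came from male RORα f/f mice, in which *Rora* carries loxP sites, and from RORα LKO mice (Alb-cre;RORa f/f), which share the floxed allele and also express Cre under the albumin promoter, active in hepatocytes. All were on a C57BL/6 background and were fed a control diet (CD) or a high-fat diet (HFD, 60% of kcal from fat) for 10 weeks from 8 weeks of age. Polyadenylated RNA was sequenced in 8 libraries, 2 for each combination of genotype and diet, each made from the combined livers of 2 mice, so that the spread between libraries is that between pools.

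CD36 is a membrane glycoprotein that binds long-chain fatty acids and oxidized lipoproteins, and it is scarce in healthy hepatocytes and abundant in fat, muscle, capillary endothelium and macrophages. The Slc27a genes encode the FATP proteins, which combine uptake with acyl-CoA synthetase activity, and FATP2 and FATP5 (*Slc27a2* and *Slc27a5*) are the hepatocyte forms, the latter also conjugating bile acids. The Fabp genes encode small soluble carriers: *Fabp1* the liver form, *Fabp2* the intestinal form, *Fabp4* the form of adipocytes, macrophages and capillary endothelium, and *Fabp5* the epidermal form. Several of these genes are known targets of PPAR nuclear receptors, which bind DNA as partners of RXR at paired AGGTCA half-sites, and RORα binds a single AGGTCA half-site preceded by A and T bases.

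RefSeq promoter windows (GRCm38.p6, 250 bases before to 50 after a transcription start) were found for 6 of the 9 genes, with 8 starts among them. *Fabp5*, which had the largest diet difference among the 9 genes, was not among these 6. Of the 6, *Cd36* and *Fabp2* were chosen for their differences between groups and *Fabp1* as the most abundant. The stretches before the starts of these 3 genes are printed. Each reads 5′ to 3′ on the strand of its gene, with matches to AGGTCA on either strand in capitals.
Cd36 (chr5:17835897-17836146, minus strand): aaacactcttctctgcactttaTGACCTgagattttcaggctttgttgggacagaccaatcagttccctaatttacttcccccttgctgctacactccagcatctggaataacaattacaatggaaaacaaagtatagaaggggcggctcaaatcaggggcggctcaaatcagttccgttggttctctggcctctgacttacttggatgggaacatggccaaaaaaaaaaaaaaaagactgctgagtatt
Fabp2 (chr3:122894822-122895071, plus strand): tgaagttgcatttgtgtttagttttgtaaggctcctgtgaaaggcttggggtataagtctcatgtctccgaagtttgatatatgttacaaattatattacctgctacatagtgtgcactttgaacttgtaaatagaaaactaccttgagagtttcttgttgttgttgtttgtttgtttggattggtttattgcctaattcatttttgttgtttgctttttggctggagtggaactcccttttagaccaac
Fabp1 (chr6:71199629-71199826, plus strand): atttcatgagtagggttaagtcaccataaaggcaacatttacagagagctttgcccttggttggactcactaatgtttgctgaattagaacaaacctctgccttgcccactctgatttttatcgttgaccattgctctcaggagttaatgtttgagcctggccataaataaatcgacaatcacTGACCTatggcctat
The *Fabp1* stretch stops before its GENCODE exon, so 52 bases of the window nearest the RefSeq start are not shown. The *Cd36* stretch lies inside the gene, which spans 17781690 to 17888801 on the minus strand. Its start is thus an internal one and not the 5′ end of that span. The window of *Slc27a2* also lies inside the span of its gene. The capitals read TGACCT, which is AGGTCA on the opposite strand. A match began 228 bases before the *Cd36* start and 67 bases before the *Fabp1* start, and a further match 9 bases before the *Fabp1* start lies in the stretch left out. *Slc27a2* had a match 220 bases before its start, whereas the windows of *Fabp2*, *Slc27a1* and *Slc27a4* had none. AGGTCA on either strand occurred in 16.3% of all 32851 windows. The paired motif AGGTCANAGGTCA, which contains AGGTCA, occurred as an exact match in 0.0396% of windows. It had no exact match in the windows of the 6 genes that had one. Pairs with a mismatch were not counted. In the *Fabp1* stretch the capitals are followed by a and then tggcct, which has g where TGACCT has a. That stretch thus comes close to the paired motif on the opposite strand. These matches and this near match describe letters, not bound sites.

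The deposited values are FPKM, fragment numbers divided by transcript length and library size, and the depth of a library cannot be read from them. Between 10587 and 10706 genes exceeded an FPKM of 1 in a library. *Rora*, whose floxed exons should be lost in hepatocytes, had a mean FPKM of 8.72 and 8.07 in the f/f and LKO groups on CD and of 7.71 and 7.66 on HFD. Both LKO libraries lay below both f/f libraries on CD, whereas the groups overlapped on HFD, and neither difference passed the test (limma adjusted p = 0.61 on CD and 0.97 on HFD). The FPKM covers the whole gene, of which the floxed exons are a part, so each genotype below is the one on the label. Libraries are therefore called LKO-labelled and f/f-labelled. In f/f CD replicate 2, 1 unnamed gene held 18.7% of the summed FPKM, against 6.77% to 9.28% for the leading gene of the other libraries. *Alb* was listed at 0 in 4 of 8 libraries and at 29902 to 30888 FPKM in the rest, so an exact 0 can be a failed estimate, and none of the 9 genes was listed at 0.

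On the FPKM scale, which is per length, the levels of the 9 genes spanned 3 tiers. *Fabp1* had a mean of 4520 FPKM over the 8 libraries, rank 27 of the 11634 genes tested. *Slc27a2* followed at 877 FPKM (rank 95) and *Slc27a5* at 345 FPKM (rank 211). The middle tier held *Fabp2* (64.9 FPKM) and *Cd36* (31.6 FPKM), and in each library *Fabp2* was above *Cd36*. *Fabp5* (13.4 FPKM), *Slc27a4* (8.93 FPKM), *Fabp4* (8.21 FPKM) and *Slc27a1* (4.91 FPKM) formed the lowest tier. There *Slc27a4* and *Fabp4* overlapped in range, and *Fabp5* ranged from 2.32 to 32.4 FPKM, across all the others of that tier. *Fabp5* also reached into the middle tier on CD. It was above *Cd36* in f/f CD replicate 2 (32.4 against 19.2 FPKM) and LKO CD replicate 2 (32.3 against 19.5 FPKM). The highest library exceeded the lowest 14.0-fold for *Fabp5*, 4.15-fold for *Cd36* and 2.63-fold for *Fabp2*, and 1.28-fold to 2.15-fold for the other 6 genes.

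**Figure D1:**
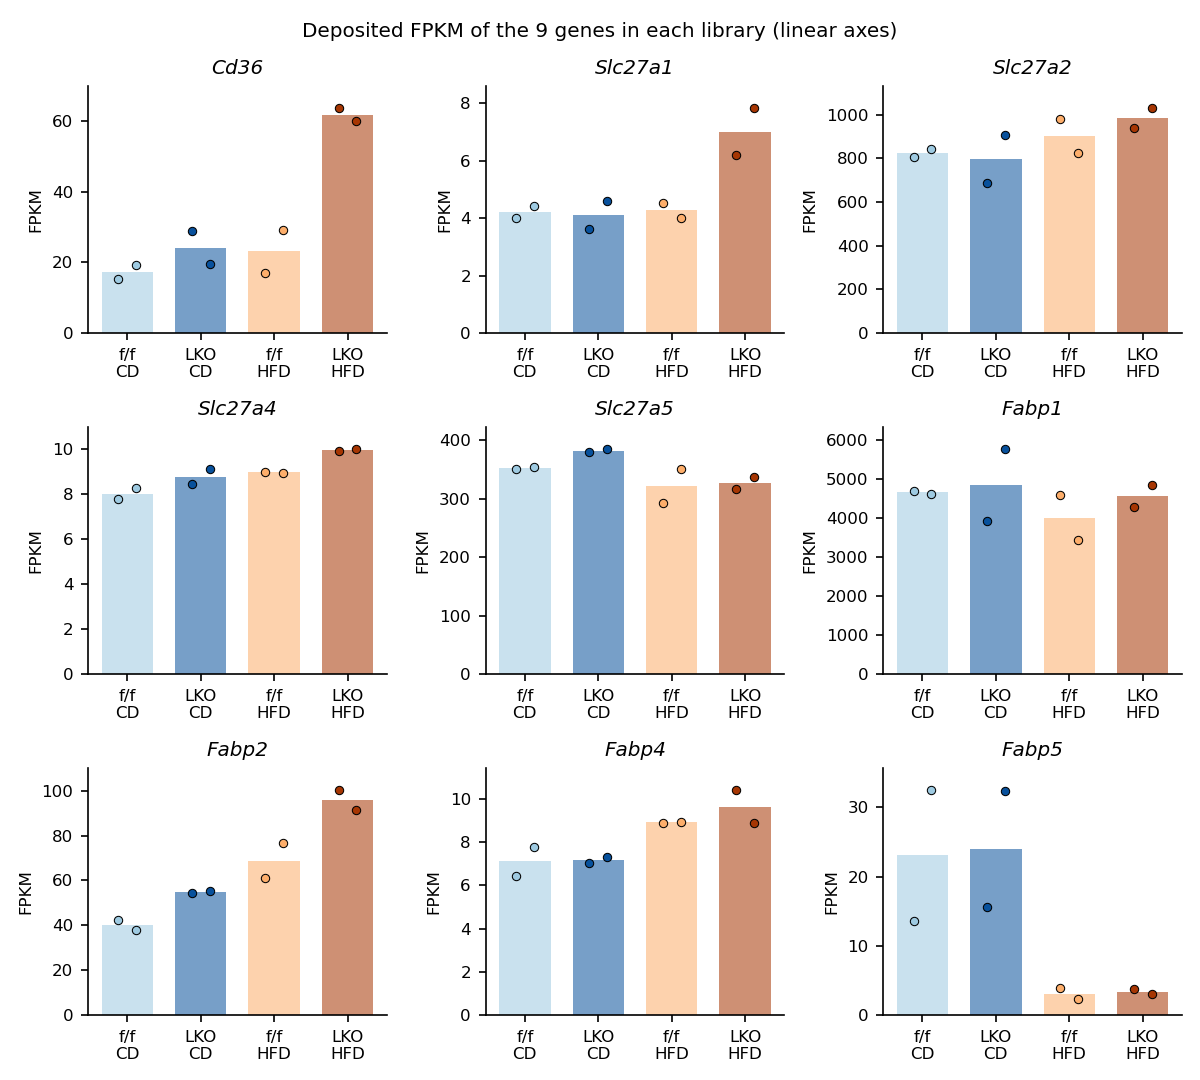
Deposited FPKM (linear axes, starting at 0) of the 9 genes by genotype label and diet. Points are the 2 libraries of a group, each a pool of 2 livers, and bars are their means. *Cd36* reached 60.1 and 63.7 FPKM in the LKO-labelled libraries on HFD and at most 29.3 elsewhere, *Fabp2* stepped up with both diet and label, and *Fabp5* was at most 3.88 on HFD and at least 13.7 on CD.

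*Cd36* (chromosome 5 of GRCm38, 17781690 to 17888801, minus strand) had 15.3 and 19.2 FPKM in the f/f-labelled CD libraries and 28.9 and 19.5 FPKM in the LKO-labelled CD libraries. On HFD it had 17.0 and 29.3 FPKM under the f/f label and 63.7 and 60.1 FPKM under the LKO label. The HFD-fed LKO-labelled pair stood at least 30.8 FPKM above each other library, while the remaining 6 libraries formed 1 range from 15.3 to 29.3. The mean in HFD-fed LKO-labelled livers, 61.9 ± 2.49 FPKM (SD, n = 2), was 2.68 times that of HFD-fed f/f-labelled livers, 23.1 ± 8.74 FPKM (SD, n = 2). On the log2(FPKM + 1) scale after quantile normalization, which is the scale of all fitted fold changes here and understates those of low genes, this difference was 1.48 (standard error 0.28, 95% interval 0.83 to 2.14). Its unadjusted limma p was 0.0012, and its adjusted p of 0.21 over all genes did not pass.

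On CD the 2 *Cd36* means differed 1.40-fold, and the lowest LKO-labelled library was only 0.329 FPKM above the highest f/f-labelled one (log2 difference 0.47, standard error 0.28, adjusted p = 0.54 from limma). The fitted genotype difference was 1.02 larger on HFD than on CD on the log2 scale (standard error 0.39, unadjusted p = 0.037, adjusted p = 0.58 from limma). Leaving out 1 library moved this to 0.64 (without f/f HFD replicate 1) to 1.40, and the difference on CD to 0.19 (without LKO CD replicate 1) to 0.74 (without LKO CD replicate 2). Read by diet, *Cd36* was 2.55 times higher on HFD than on CD under the LKO label, with a log2 difference of 1.40 and an adjusted limma p of 0.051, just above the threshold of 0.05. Under the f/f label it was 1.34 times higher with overlapping libraries (log2 difference 0.38, adjusted p = 0.49 from limma), a value that was 0.0066 without f/f HFD replicate 2 and 0.76 without f/f HFD replicate 1. Averaged over the labels, *Cd36* rose with HFD by 0.89 (standard error 0.20, adjusted p = 0.037 from limma), an average of those 2 unequal values. That call held in 2 of the 8 fits that each left out 1 library, without LKO CD replicate 1 and without f/f HFD replicate 1, and was lost in the other 6 (adjusted p up to 0.12 from limma).

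Of the 4 FATP genes, *Slc27a1* (chromosome 8, 71568882 to 71587302, plus strand), the muscle and fat form, had the largest fitted label difference on HFD. Its libraries had 4.01 and 4.42 FPKM (f/f CD), 3.63 and 4.61 FPKM (LKO CD), 4.54 and 4.00 FPKM (f/f HFD), and 6.21 and 7.82 FPKM (LKO HFD). The first 3 groups overlapped fully, and the HFD-fed LKO-labelled pair lay above all of them. Its mean there was 1.64 times that of f/f-labelled livers on HFD, with a log2 difference of 0.61 (standard error 0.14, unadjusted p = 0.0030, adjusted p = 0.25 from limma). On CD the same difference was −0.037 (adjusted p = 0.94 from limma). The difference between the diets was 0.65 (standard error 0.19, unadjusted p = 0.012, adjusted p = 0.56 from limma). The rise from CD to HFD under the LKO label, 0.68 on the log2 scale, again fell just short of the threshold (adjusted p = 0.051 from limma). About 1.43% of the 50-base words of its transcripts also occur in other genes, so reads of that stretch could be placed elsewhere.

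*Slc27a2* (chromosome 2, 126552407 to 126588243, plus strand) had 805 and 843 FPKM (f/f CD), 686 and 906 FPKM (LKO CD), 982 and 823 FPKM (f/f HFD), and 940 and 1029 FPKM (LKO HFD). The genotype groups overlapped on both diets. Averaged over the labels it was called higher on HFD by 0.45 on the log2 scale (standard error 0.11, adjusted p = 0.0497 from limma), but the mean of the deposited FPKM was 1.17 times higher and the libraries overlapped. Quantile normalization moved *Slc27a2* by −0.17 to −0.085 in CD libraries and by 0.0041 to 0.24 in HFD libraries. Genes with a median above 1000 FPKM moved by a median of −0.16 to −0.081 in CD libraries and of 0.029 to 0.23 in HFD libraries. Without normalization the *Slc27a2* difference was 0.22 (adjusted p = 0.22 from limma), so the call rested on quantile normalization. With each library left out in turn it held in 1 of 8 fits, that without LKO CD replicate 2. Of its 50-base words, 9.8% are shared with the overlapping gene Gm26697, which had at most 0.485 FPKM.

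*Slc27a5* (chromosome 7, 12988346 to 12998192, minus strand) had 350.1 and 353 FPKM (f/f CD), 379 and 384 FPKM (LKO CD), 293 and 350.1 FPKM (f/f HFD), and 316 and 338 FPKM (LKO HFD). All 4 HFD libraries lay below all 4 CD libraries, although the 2 f/f-labelled libraries at 350.1 FPKM were the same to the digits given. The mean was 11.6% lower on HFD in deposited FPKM, and the fitted difference, −0.059 with normalization and −0.18 without, did not pass in either form (adjusted p = 0.55 and 0.14 from limma). Its genotype differences were 0.086 on CD and 0.068 on HFD (adjusted p = 0.69 and 0.82 from limma).

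*Slc27a4* (chromosome 2, 29802634 to 29817522, plus strand), which is widely expressed, had 7.79 and 8.26 FPKM (f/f CD), 8.46 and 9.10 FPKM (LKO CD), 8.99 and 8.94 FPKM (f/f HFD), and 9.91 and 9.99 FPKM (LKO HFD). Each of the 4 pairwise contrasts separated its libraries, yet the steps were small, with means 1.09 to 1.13 times higher. None passed the test, the smallest adjusted limma p of the 4 being 0.17.

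*Fabp1* (chromosome 6, 71199827 to 71205023, plus strand) had 4707 and 4620 FPKM (f/f CD), 3918 and 5763 FPKM (LKO CD), 4587 and 3445 FPKM (f/f HFD), and 4282 and 4841 FPKM (LKO HFD). The 2 LKO CD libraries stood farther apart than any 2 group means did. No comparison passed, with log2 differences between the labels of 0.094 on CD and 0.31 on HFD (adjusted p = 0.91 and 0.73 from limma). The sign of its diet difference depended on the scaling: averaged over the labels it was 0.21 with quantile normalization (adjusted p = 0.47 from limma), −0.15 without it and −0.12 with libraries centred on their medians.

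*Fabp2* (chromosome 3, 122895072 to 122899506, plus strand) rose with HFD under both labels. Its libraries had 42.3 and 38.1 FPKM (f/f CD), 54.3 and 55.3 FPKM (LKO CD), 61.0 and 76.5 FPKM (f/f HFD), and 100.1 and 91.5 FPKM (LKO HFD). The 4 groups did not overlap and formed a ladder, with the LKO-labelled group above the f/f-labelled group on each diet and both HFD groups above both CD groups. Under the f/f label the mean on HFD was 1.71 times that on CD, a log2 difference of 0.79 (standard error 0.13, adjusted p = 0.044 from limma). Under the LKO label it was 1.75 times, a log2 difference of 0.86 (standard error 0.13, adjusted p = 0.026 from limma). The rise averaged over the labels was 0.83 (standard error 0.09, 95% interval 0.61 to 1.04, adjusted p = 0.0060 from limma). This last call held with each of the 8 libraries left out (adjusted p 0.010 to 0.034 from limma). The call under the f/f label was lost in each of those 8 fits, in which the difference was 0.61 to 0.97. The call under the LKO label held only without f/f HFD replicate 1 or 2. Leaving out any library lowers the residual degrees of freedom of every comparison, also of those it is not part of. A lost call can thus come without a change in the difference itself.

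Between the labels, *Fabp2* was 1.36 times higher under LKO on CD and 1.39 times higher on HFD. The log2 differences of 0.45 (95% interval 0.15 to 0.74) and 0.52 (95% interval 0.22 to 0.82) had unadjusted p values of 0.0099 and 0.0048 and did not pass after adjustment (adjusted p = 0.26 and 0.28 from limma). Averaged over the diets the difference was 0.48 (standard error 0.09, unadjusted p = 0.0011, adjusted p = 0.12 from limma). The difference between the diets was 0.072 with a 95% interval of −0.35 to 0.49. Differences of either sign within that interval, and none at all, were compatible with these libraries.

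*Fabp4* (chromosome 3, 10204088 to 10208576, minus strand) and *Fabp5* (3, 10012548 to 10016607, plus strand) lie on chromosome 3, 187480 bases apart. Their cluster holds 4 genes with a Fabp symbol. The other 2 of these 4, *Fabp9* and *Fabp12*, had at most 0.116 FPKM. Genes of the region under other symbols were not examined. *Fabp4* was higher and *Fabp5* lower on HFD. *Fabp4* had 6.45 and 7.78 FPKM (f/f CD), 7.05 and 7.30 FPKM (LKO CD), 8.89 and 8.94 FPKM (f/f HFD), and 10.4 and 8.88 FPKM (LKO HFD). All 4 HFD libraries lay above all 4 CD libraries, and averaged over the labels *Fabp4* rose by 0.37 on the log2 scale (standard error 0.08, adjusted p = 0.033 from limma), with a mean 1.30 times higher. The call was lost with each of the 8 libraries left out (adjusted p 0.054 to 0.10 from limma). The labels overlapped on each diet (log2 difference 0.018 on CD and 0.12 on HFD, adjusted p = 0.96 and 0.78 from limma).

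*Fabp5* had 13.7 and 32.4 FPKM (f/f CD), 15.6 and 32.3 FPKM (LKO CD), 3.88 and 2.32 FPKM (f/f HFD), and 3.73 and 2.98 FPKM (LKO HFD). All 4 HFD libraries were below all 4 CD libraries, and in both CD groups replicate 2 was well above replicate 1. The mean FPKM was 7.28 times higher on CD than on HFD over all libraries. Over both labels *Fabp5* fell by 2.42 on the log2 scale (standard error 0.32, 95% interval −3.19 to −1.65, adjusted p = 0.0094 from limma), the largest diet difference among the 9 genes. Under the LKO label the difference was −2.40 (adjusted p = 0.047 from limma) and under the f/f label −2.43 (adjusted p = 0.062 from limma), and the difference between these, 0.027, had a 95% interval of −1.51 to 1.56. With each of the 8 libraries left out the call averaged over the labels held (adjusted p 0.019 to 0.046 from limma), and the call under the LKO label was lost (adjusted p 0.054 to 0.20 from limma). In bulk liver fewer cells of a type and less RNA per cell cannot be told apart. Of its 50-base words, 5.48% occur in 5 other genes, and all 5 were listed at 0.

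**Figure D2:**
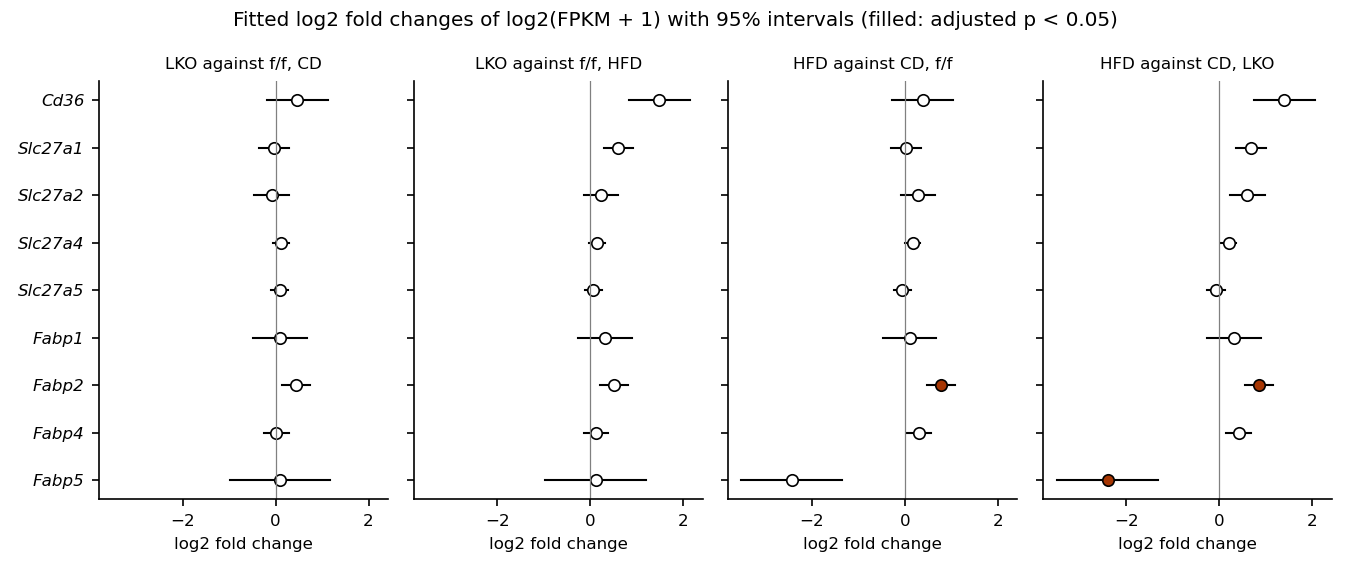
Fitted log2 fold changes of the 9 genes in the 4 pairwise comparisons, on the quantile-normalized log2(FPKM + 1) scale. Points are estimates from 1 limma fit over 8 libraries, lines are 95% intervals and filled points have an adjusted p under 0.05: *Fabp2* in both diet panels and *Fabp5* under the LKO label. *Cd36* lies at 1.48 between the labels on HFD and at 0.47 on CD.

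Counted over the 9 genes, the genotype comparisons gave no adjusted call. On HFD 0 of 9 passed at an adjusted p under 0.05 in limma, where 0.043% of all 11634 genes did. At an unadjusted p under 0.05 limma found 3 (*Cd36*, *Slc27a1* and *Fabp2*), against 9.58% of all genes, and all 3 were higher under LKO, against 5.46%. On CD 0 of 9 passed (background 0.0172%), and 1, *Fabp2*, had an unadjusted p under 0.05 (background 12.3%, or 6.15% for the upward direction). For the difference of the genotype effect between the diets 0 passed (background 0.0344%), and 2, *Cd36* and *Slc27a1*, had an unadjusted p under 0.05 (background 8.35%, upward 4.35%). For the labels averaged over the diets 0 passed (background 0.103%), and *Cd36*, *Slc27a1*, *Slc27a4* and *Fabp2*, 4 of 9, had an unadjusted p under 0.05 (background 13.5%, upward 7.18%). The fitted genotype difference was above 0 for 9 of 9 genes on HFD and for 7 of 9 on CD, with medians of 0.23 and 0.092 against medians of −0.00067 and −0.00085 over all genes.

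The libraries of the 2 labels did not overlap for 4 of 9 genes on HFD, each higher under LKO (*Cd36*, *Slc27a1*, *Slc27a4* and *Fabp2*), where 42.1% of all genes were separated in either direction and 19.1% upward. On CD 4 of 9 were separated (*Cd36*, *Slc27a4*, *Slc27a5* and *Fabp2*), again upward, against 43.3% in either direction and 20.8% upward. Over both diets together 0 of 9 were separated by label (background 4.91%). A separation of 2 libraries from 2 was thus common among all genes.

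The diet comparisons gave more calls. In f/f-labelled livers 1 of 9 passed, *Fabp2* upward (background 1.33%, upward 0.627%). At an unadjusted p under 0.05 there were 4 (background 19.2%), with *Slc27a4*, *Fabp2* and *Fabp4* higher (upward 9.94%) and *Fabp5* lower (downward 9.22%). In LKO-labelled livers 2 of 9 passed (background 3.02%), *Fabp2* upward (1.57%) and *Fabp5* downward (1.44%). At an unadjusted p under 0.05 there were 7 (background 21.3%), all but *Slc27a5* and *Fabp1*, 6 of them higher (11.7%) and *Fabp5* lower (9.69%). With the labels averaged 5 of 9 passed (background 9.89%), *Cd36*, *Slc27a2*, *Fabp2* and *Fabp4* upward (5.04%) and *Fabp5* downward (4.86%). The same 7 genes as under the LKO label had an unadjusted p under 0.05 (background 27.9%, upward 14.9% and downward 13%).

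Libraries of the diets did not overlap under the f/f label for 6 of 9 genes (background 49.9%), 3 upward (22.3%) and 3 downward (27.6%). Under the LKO label 8 of 9 were separated (background 53.2%), 6 upward (22.9%) and 2 downward (30.2%). Over all 8 libraries 4 of 9 were separated by diet (background 16.5%), with *Fabp2* and *Fabp4* upward (6.21%) and *Slc27a5* and *Fabp5* downward (10.3%). The pairwise comparisons share groups with each other, so their values for a gene are not independent.

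The fitted log2 differences not given above were as follows, and none passed. Between HFD and CD under the f/f label they were 0.037 for *Slc27a1*, 0.29 for *Slc27a2*, 0.17 for *Slc27a4*, −0.050 for *Slc27a5*, 0.10 for *Fabp1* and 0.32 for *Fabp4* (smallest adjusted p = 0.19 from limma). Under the LKO label they were 0.61 for *Slc27a2*, 0.20 for *Slc27a4*, −0.067 for *Slc27a5*, 0.32 for *Fabp1* and 0.41 for *Fabp4* (smallest adjusted p = 0.089 from limma). Averaged over the labels *Slc27a1* was at 0.36 and *Slc27a4* at 0.18 (adjusted p = 0.063 and 0.065 from limma). In these 3 diet comparisons *Slc27a5* and *Fabp5* had fitted values below 0 and the other 7 genes values above 0, of which that of *Fabp1* was below 0 without normalization and with median centring. Between the labels the differences were 0.23 for *Slc27a2*, 0.15 for *Slc27a4* and 0.12 for *Fabp5* on HFD and −0.087 for *Slc27a2*, 0.12 for *Slc27a4* and 0.092 for *Fabp5* on CD (smallest adjusted p = 0.56 and 0.53 from limma). Averaged over the diets the label differences were 0.98 for *Cd36*, 0.29 for *Slc27a1*, 0.070 for *Slc27a2*, 0.14 for *Slc27a4*, 0.077 for *Slc27a5*, 0.20 for *Fabp1*, 0.067 for *Fabp4* and 0.11 for *Fabp5* (smallest adjusted p = 0.13 from limma). For the difference between the diets the values were 0.31 for *Slc27a2*, 0.033 for *Slc27a4*, −0.017 for *Slc27a5*, 0.22 for *Fabp1* and 0.099 for *Fabp4* (smallest adjusted p = 0.72 from limma).

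Since the Slc27a genes share a function, the make-up of their summed FPKM was also examined. Their sum was 1077 to 1384 FPKM per library, of which *Slc27a2* made up 63.7% to 76.2% and *Slc27a5* 22.8% to 35.2%, whereas *Slc27a1* and *Slc27a4* each stayed under 0.79%. The 4 Fabp genes summed to 3533 to 5858 FPKM, and *Fabp1* was 97.4% to 98.7% of this. The differences in *Fabp2* and *Fabp5* were thus those of minor forms. Among the 3 minor forms, *Fabp5* made up 20.2% to 41.4% on CD and 2.64% to 5.26% on HFD, and *Fabp2* 48.6% to 70.6% on CD and 82.7% to 88.5% on HFD.

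**Figure D3:**
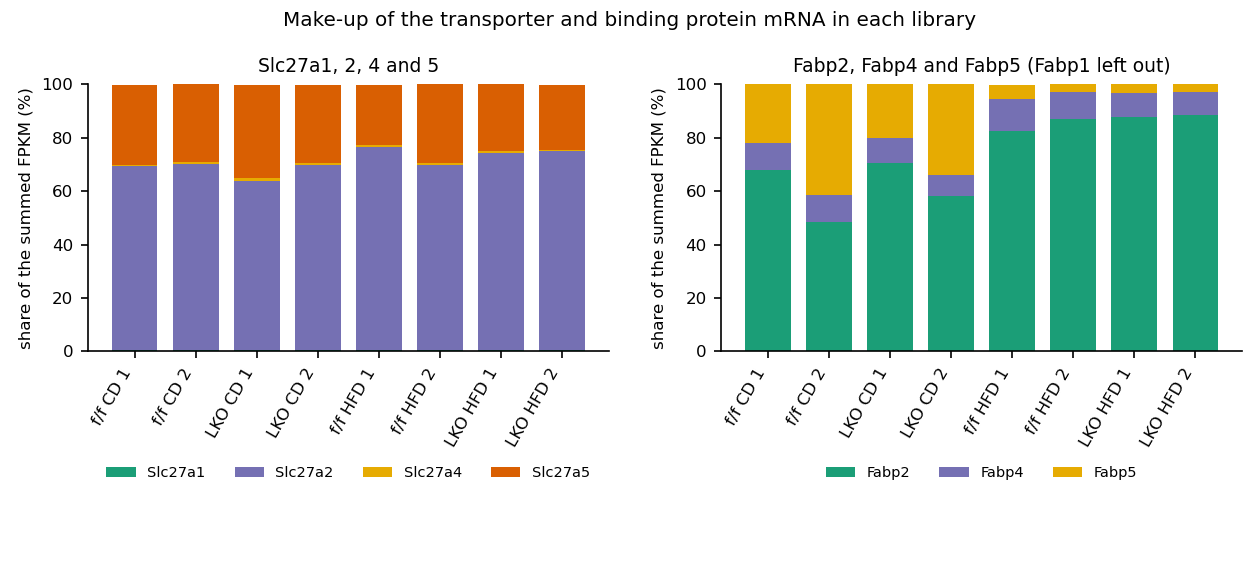
Share (in %) of each gene in the summed FPKM of 4 Slc27a genes (left) and of *Fabp2*, *Fabp4* and *Fabp5* with *Fabp1* left out (right), with 1 bar per library. *Slc27a2* and *Slc27a5* fill the left bars, and the *Fabp5* share on the right is at least 20.2% on CD and at most 5.26% on HFD.

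Because *Cd36*, *Fabp4* and *Fabp5* are abundant in other cell types, marker lists were read in the same libraries. The 8 hepatocyte markers were detected, with a summed FPKM without *Alb* of 13097 to 14134 on CD and 11640 to 12155 on HFD, so that all 4 HFD sums lay below all 4 CD sums. Of the 7 genes in that sum *Apoa1*, *Cps1* and *Tat* were lower in all 4 HFD libraries than in all 4 CD libraries, as were 10.3% of all genes. *Tat*, the tyrosine aminotransferase, had 250.4 to 322 FPKM on HFD against 480.4 to 1036 FPKM on CD. Between the labels on CD, 5 of the 7 were separated downward under LKO (*Hnf4a*, *Cps1*, *Tat*, *Ass1* and *Apob*) and 1 upward (*Ttr*). On HFD *Cps1* was separated downward and *Ttr* upward. Of all genes 43.3% were separated by label on CD and 42.1% on HFD, in either direction. Of 6 adipocyte markers 5 were under 1 FPKM in every library, *Adipoq* reaching at most 0.377 and *Adig* being listed at 0 throughout. The list summed to 0.267 to 2.85 on CD, 1.04 and 2.17 in the f/f HFD libraries and 5.55 and 5.30 in the LKO HFD libraries. In that last pair nearly all of it was *Cfd* (5.45 and 5.29 FPKM), while in f/f HFD replicate 1 *Cfd* was 0.488 of the 1.04. *Cfd* thus was high in the same libraries as *Cd36*, while the defining adipocyte genes were near 0. Between the labels on HFD *Cfd* was separated upward under LKO, and *Adipoq* and *Retn*, both near 0, downward. On CD *Cfd* was also separated upward under LKO (0.182 and 0.483 FPKM under f/f, 2.76 and 0.538 FPKM under LKO).

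The 8 endothelial markers summed to 52.9 to 68.9 FPKM on CD and 58.8 to 72.6 FPKM on HFD. The 8 macrophage markers summed to 79.9 to 108 FPKM on CD, 77.1 and 63.9 FPKM in the f/f HFD libraries and 111 and 79.6 FPKM in the LKO HFD libraries. Both lists had all their genes detected, and the ranges of their sums on the 2 diets overlapped. *Tek*, an endothelial marker, was narrowly higher in all 4 HFD libraries (at least 1.484 FPKM) than in all 4 CD libraries (at most 1.477 FPKM). Of all genes 6.21% were separated that way. No other gene of these 2 lists was separated by diet. Between the labels on HFD both LKO-labelled macrophage sums lay above both f/f-labelled sums, as *Cd36* did. In that direction 4 of the 8 genes were separated (*Clec4f*, *Cd68*, *Vsig4* and *Timd4*), where 19.1% of all genes were. On CD 3 of the 8, *Adgre1*, *Vsig4* and *Timd4*, were separated the other way and 0 upward. There 43.3% of all genes were separated in either direction and 20.8% upward, and the downward share was not counted separately. Of the endothelial genes *Stab2* was separated downward under LKO on HFD and *Tek* on CD. The part of the hepatocyte, endothelial and macrophage levels in the *Cd36*, *Fabp4* and *Fabp5* differences was not tested. Of 6 intestinal epithelium markers, 5 were under 1 FPKM everywhere and *Sis*, *Cdx1* and *Cdx2* were listed at 0, with *Lgals4* (21.0 to 37.1 FPKM) making up nearly all of the sum. Between the labels on HFD *Lgals4* was separated upward under LKO and *Vil1*, near 0, downward, where 42.1% of all genes were separated in either direction. All 6 skeletal muscle markers were under 1 FPKM.

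**Figure D4:**
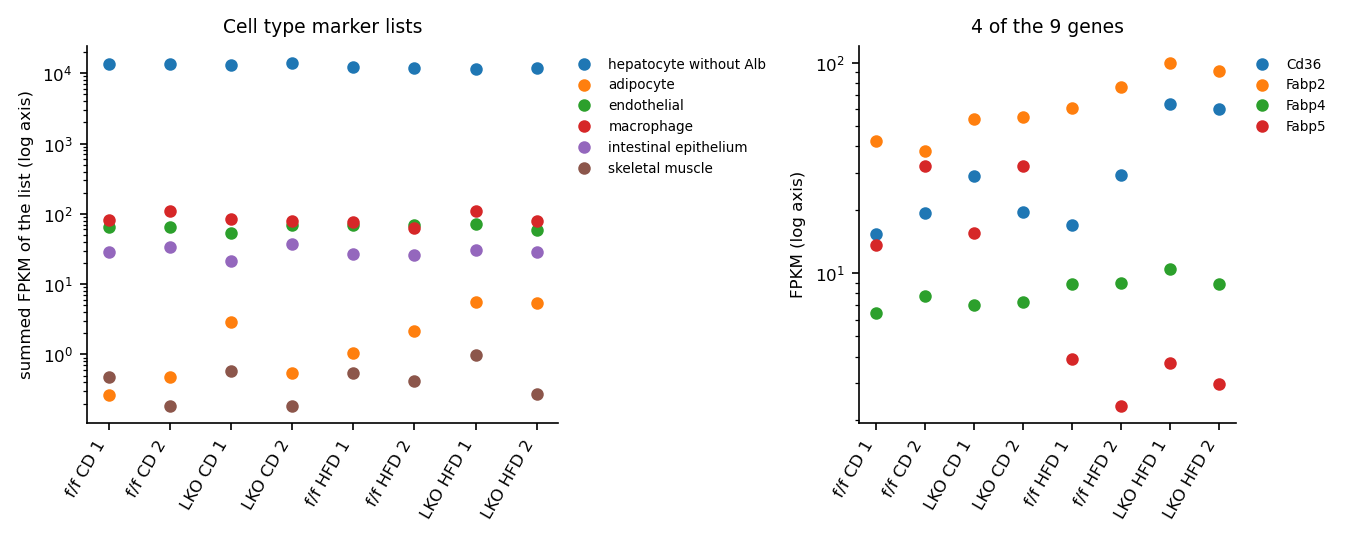
Summed FPKM of 6 marker lists (left, log axis, hepatocyte list without *Alb*) and FPKM of 4 of the genes (right, log axis) in each library. Endothelial and macrophage sums stay between 52.9 and 111 FPKM, the adipocyte sum is at most 5.55 FPKM, and *Fabp5* drops on HFD while *Fabp2* is highest in the HFD-fed LKO-labelled libraries.

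Around the 9 genes, 31 other genes of fatty acid entry and handling were counted, of which 26 were tested. With HFD, averaged over the labels, 6 rose and 4 fell at an adjusted p under 0.05, where 5.04% of all genes rose and 4.86% fell, and the median log2 difference of the 26 was 0.057 against 0.011 over all genes. Of the 6 tested acyl-CoA synthetases, which trap fatty acids as CoA esters, 4 fell and none rose, with *Acsl4* at −0.85, *Acss2* at −0.78, *Acsl3* at −0.62 and *Acsl5* at −0.44 (adjusted p = 0.0061, 0.0075, 0.035 and 0.012 from limma). *Acsl1*, the abundant hepatic form with 386 to 600.1 FPKM, was at 0.15 and *Acsm1* at −0.11, and neither passed (adjusted p = 0.61 and 0.24 from limma). Of the 5 surface genes, *Vldlr*, which binds triglyceride-rich lipoproteins, rose by 1.13, from 0.200 to 0.505 FPKM on CD to 1.46 to 2.82 FPKM on HFD (adjusted p = 0.0036 from limma). It exceeded 1 FPKM in HFD libraries only, and so was tested only because of the group where it is high. With genes above 0 FPKM in at least 1 library tested instead its difference was 1.14 (adjusted p = 0.0089 from limma), and with a pseudocount of 0.1 it was 2.15. *Gpihbp1*, the capillary anchor of lipoprotein lipase, rose by 0.46 (adjusted p = 0.045 from limma).

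Among 8 tested transporters and binding proteins outside the 9 genes, *Got2*, a mitochondrial aminotransferase also described as a plasma membrane fatty acid binding protein, rose by 0.19 (adjusted p = 0.046 from limma), or by 0.094 without normalization. Of the 7 nuclear receptors, *Pparg* rose by 0.25, *Rxra* by 0.27 and *Hnf4a* by 0.28 (adjusted p = 0.047, 0.015 and 0.048 from limma), while *Ppara* had 35.7 to 55.5 FPKM and did not pass. Under the f/f label alone *Vldlr* rose by 0.98, and *Acsl4* and *Acsl5* changed by −0.995 and −0.62 (adjusted p = 0.038, 0.037 and 0.038 from limma). Under the LKO label alone *Vldlr* rose by 1.28, and *Acsl4* and *Acss2* changed by −0.70 and −0.86 (adjusted p = 0.018, 0.047 and 0.030 from limma). At an adjusted p under 0.05, 1.33% of all genes were called under the f/f label and 3.02% under the LKO label. In the 8 fits that each left out 1 library the 3 f/f-label calls were lost every time, as were those of *Acsl4* and *Acss2* under the LKO label, and *Vldlr* under the LKO label held in 4 of 8, those that left out an f/f library. Averaged over the labels, *Vldlr*, *Acsl4*, *Acsl5* and *Acss2* held in 8 of 8, *Rxra* in 5, *Acsl3* in 2, and *Got2*, *Gpihbp1*, *Pparg* and *Hnf4a* in 0. Without normalization these last 4 did not pass either (adjusted p = 0.234, 0.0517, 0.0699 and 0.119 from limma).

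**Figure D5:**
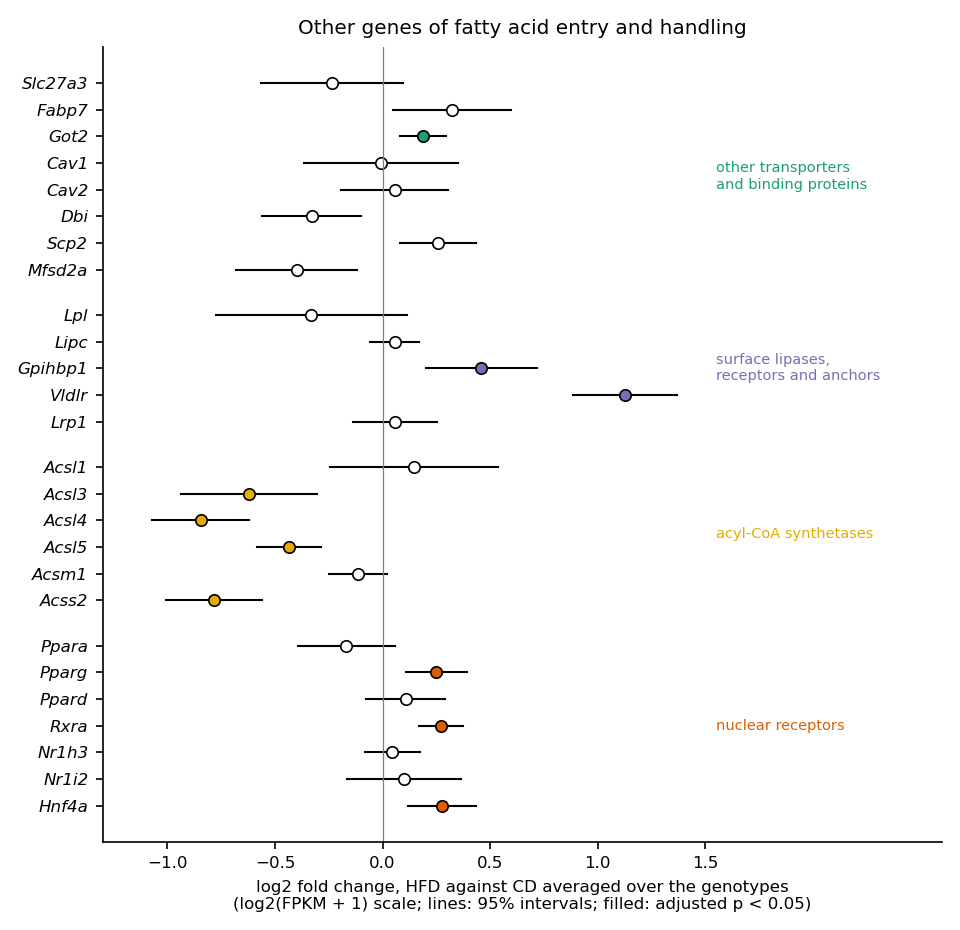
Fitted log2 fold change between HFD and CD, averaged over the genotype labels, for the 26 tested genes of 4 lists, on the quantile-normalized log2(FPKM + 1) scale. Points are limma estimates, lines are 95% intervals and filled points have an adjusted p under 0.05, with 4 acyl-CoA synthetases to the left and *Vldlr* (1.13) farthest to the right.

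Between the labels 0 of these 26 genes passed on HFD, and 5 higher and 1 lower had an unadjusted p under 0.05 (9.58% of all genes). The largest of these were *Cav1*, the coat protein of caveolae, at −0.59, *Acsl5* at 0.56, *Vldlr* at 0.44 and *Pparg* at 0.42 (unadjusted p = 0.028, 0.00045, 0.018 and 0.0018 from limma, adjusted p = 0.44, 0.14, 0.38 and 0.23). *Cav1* was at −0.32 without f/f HFD replicate 1 and at −0.89 with a pseudocount of 0.1. *Pparg* had 4.22 and 4.46 FPKM in the f/f HFD libraries and 5.86 and 6.38 FPKM in the LKO HFD libraries. On CD 0 passed, and *Mfsd2a*, a lysophospholipid transporter, at −0.46 and *Acsl4* at −0.36 had an unadjusted p under 0.05 (0.029 and 0.030 from limma, adjusted p = 0.34 and 0.35), where 12.3% of all genes did. They were at −0.25 without LKO CD replicate 1 and at −0.24 without f/f CD replicate 2, respectively. For the difference between the diets 0 passed, and 2 higher and 3 lower had an unadjusted p under 0.05 (8.35% of all genes), the largest being *Cav1* at −0.89, *Slc27a3* at −0.67, *Acsl5* at 0.36 and *Acsm1* at −0.34 (adjusted p = 0.56, 0.59, 0.56 and 0.56 from limma). *Slc27a3* exceeded 1 FPKM in LKO CD replicate 2 only (1.02 FPKM), so that it was tested only because of that library, and with a pseudocount of 0.1 it was at −1.96 and *Cav1* at −1.35. Averaged over the diets 0 passed, with *Acsl5* at 0.38, *Vldlr* at 0.30, *Cav2* at −0.27 and *Dbi* at 0.27 leading the 7 genes at an unadjusted p under 0.05, where 13.5% of all genes were (adjusted p = 0.098, 0.28, 0.32 and 0.29 from limma). With a pseudocount of 0.1 *Vldlr* was at 0.54 and *Cav2* at −0.49.

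Likeness of pattern was described over the 8 libraries and 9839 genes, which share libraries, pools and group structure. The genes with the highest Pearson's r to *Cd36* were *Hexa* (0.977), a lysosomal hexosaminidase subunit, *Leprotl1* (0.969), *Bche* (0.966), the butyrylcholinesterase, *Pparg* (0.961) and *Ehd1* (0.961). By Spearman's rho none of these 5 stayed among the leading 5. For *Fabp1* the leading gene was *Ogdh* (0.974), a subunit of the oxoglutarate dehydrogenase complex, followed by *Phf13* (0.941), *Enoph1* (0.938), *Ppp2r2d* (0.935) and *Rapgef2* (0.930). For *Slc27a5* they were *Ces2g* (0.962), a carboxylesterase, *Rnaseh2a* (0.941), *Pwp2* (0.934), *Trappc6a* (0.932) and *Ube2o* (0.928). By Spearman's rho 3 of these 5 stayed among the leading 5 for *Fabp1* and 3 of 5 for *Slc27a5*.

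Among the 9 genes themselves, *Fabp2* and *Slc27a4* had the highest r, 0.938. *Cd36* had an r of 0.874 with *Fabp2*, 0.843 with *Slc27a4* and 0.777 with *Slc27a1*, and one of 0.325 with *Fabp1*. *Fabp5* had a negative r with 7 of the other 8 genes, from −0.310 with *Fabp1* to −0.803 with *Fabp2*, and one of 0.412 with *Slc27a5*. With 8 libraries in 4 groups these values mostly restate the group means given above.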

How the data were processed

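RNA of pooled mouse livers was measured in 8 libraries. Per the labels, libraries were made with the Illumina TruSeq RNA kit v2. The submitters' processing notes name cutadapt 1.0, TopHat2 2.0.7, Cufflinks and GRCm38. The authors deposited FPKM values, which are estimates and not counts, so no count model was used, and depth and counting error are unknown here.

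Ensembl identifiers were matched to symbols and coordinates in the GENCODE annotation of GRCm38 (36341 of 38283 matched). For the 11634 genes exceeding an FPKM of 1 in any library, log2(FPKM + 1) was quantile normalized and fitted with limma 3.58.1 (R 4.3.3): 1 fit of 4 group means over 8 libraries with a mean-variance trend (4 residual and 2.8 prior degrees of freedom), 7 contrasts, Benjamini-Hochberg adjustment within each, calls at an adjusted p under 0.05. The fit step alone was run on simulated log2 values with the means and spread of the normalized data. The normalization and the values listed at 0 were thus not tested. Figures were drawn with matplotlib 3.10.9.

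All 9 genes are named in each comparison. Of the 31 other genes, those with an adjusted p under 0.05 are named, otherwise up to 4 with the largest change at an unadjusted p under 0.05. A further gene of these lists is not reported here. The genes and lists were chosen with earlier results of these data known. Gm26697 and the genes of the Fabp cluster were named after their values were seen. Alternatives were no normalization, median centring, a pseudocount of 0.1, a filter of FPKM above 1 throughout or above 0 in any library, the replicate number as a block, no trend, only the libraries of a comparison, each library left out, Spearman's rho for likeness and the exclusion of genes listed at 0, chosen after seeing the data.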

Additional observations from a re-analysis of the deposited data

How the results depend on the processing

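The genotype comparisons and their difference between the diets gave 0 calls among the 9 genes under each alternative run. The counts below are not set beside the share of all genes called under the same setting. A changed count is therefore not shown to be particular to the 9 genes. Averaged over the labels, 5 genes were called with HFD against CD. This number was 4 without normalization and with median centring, 3 without the mean-variance trend, 2 with FPKM above 0 in at least 1 library, 6 with FPKM above 1 in all libraries and 6 without genes listed at 0 (chosen after seeing the data), and 2 to 3 with each library left out. Under the LKO label the 2 calls became 1 without the trend, 0 with FPKM above 0 in at least 1 library, 0 with only the libraries of the comparison, 4 with a pseudocount of 0.1, 5 with FPKM above 1 in all libraries, 5 without genes listed at 0, and 0 to 1 with each library left out. The added calls included *Cd36* and *Slc27a1*. Under the f/f label the 1 call became 0 without the trend, with FPKM above 0 in at least 1 library and with only the libraries of the comparison, 2 with a pseudocount of 0.1, with FPKM above 1 in all libraries and without genes listed at 0, and 0 with each library left out.

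Averaged over the labels, *Fabp2* (0.74 to 0.92, adjusted p 0.010 to 0.034) and *Fabp5* (−2.71 to −2.12, adjusted p 0.019 to 0.046) stayed below the threshold with each library left out. *Cd36* (0.71 to 1.08, adjusted p 0.036 to 0.12), *Fabp4* (0.31 to 0.43, adjusted p 0.054 to 0.10) and *Slc27a2* (0.32 to 0.56, adjusted p 0.025 to 0.15) did not stay below it in each case. Under the f/f label alone, without f/f CD replicate 2, *Fabp2* was at 0.73 (adjusted p = 0.22) and *Fabp5* at −1.83 (adjusted p = 0.24). Between the labels on HFD, *Cd36* ranged from 1.11 to 1.86 and *Slc27a1* from 0.47 to 0.75 with a library left out.

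Replicate numbers are shared by the groups, but same-numbered libraries come from different mice. The correlation of their deviations was −0.004 to 0.15, and −0.061 to 0.035 without genes listed at 0, so the numbers were not taken to pair the libraries. With the replicate block 2 genes were called averaged over the labels, 1 under the LKO label and 0 under the f/f label. The other 4 counts of calls stayed at 0. The cause of the changed counts was not tested.

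The direction changed in 42 of the values recomputed, none of them called. Without normalization and with median centring *Fabp1* on HFD against CD was −0.15 and −0.12 averaged over the labels, −0.23 and −0.20 under the f/f label, and −0.062 and −0.034 under the LKO label. The other changes of direction came from leaving out a library. Between the labels on HFD the range was −0.022 to 0.15 for *Slc27a5* and −0.15 to 0.38 for *Fabp5*. Between the labels on CD the range was −0.096 to 0.13 for *Fabp4*, −0.51 to 0.69 for *Fabp5*, −0.18 to 0.11 for *Slc27a1*, −0.24 to 0.45 for *Fabp1* and −0.33 to 0.15 for *Slc27a2*. For the difference between the diets the range was −0.11 to 0.068 for *Slc27a5*, −0.017 to 0.082 for *Slc27a4*, −0.017 to 0.22 for *Fabp4*, −0.58 to 0.63 for *Fabp5*, −0.11 to 0.56 for *Fabp1* and −0.11 to 0.25 for *Fabp2*. For the diet under the f/f label the range was −0.022 to 0.097 for *Slc27a1*, −0.089 to 0.29 for *Fabp1* and −0.14 to 0.042 for *Slc27a5*. For the diet under the LKO label the range was −0.0023 to 0.67 for *Fabp1*. For the labels averaged over the diets the range was −0.20 to 0.41 for *Fabp5* and −0.050 to 0.19 for *Slc27a2*.

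Each group holds 2 pools, depth is unknown from FPKM, and low genes such as *Slc27a1* sit near the pseudocount, which shrinks their fold changes.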
